A study of Homo sapiens with 9 samples.

Results

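SF3B1 binding sites were examined in 33 genes for chromatin remodelling complexes, the machines that move, evict or exchange nucleosomes with the energy of ATP. A site was counted when its centre lay inside the RefSeq span (GRCh38.p14) of a listed gene and on the strand of that gene. This gave 737 of the 96852 sites of the list, or 0.761%. The genes were chosen by function and not by their number of sites, although earlier results of the same list were known when they were proposed. Of the 33 genes, 29 had a site, against 37.9% of all protein-coding genes, while SMARCC2, SMARCE1, CHD3 and CHD4 had 0.

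The study mapped RNA contacts of splicing factors by iCLIP, a method that ties proteins to the RNA they touch with ultraviolet light, pulls the protein down with an antibody and reads the crosslinked position by sequencing. The cells were K562, an established human leukaemia line, and received 400 mJ/cm2 at 254 nm in every group. SF3B1 was immunoprecipitated from SF3B1 wt/wt cells (3 samples) and from SF3B1 K700E/wt cells (2 samples), and U2AF2 from SF3B1 wt/wt cells of another supplier (4 samples). The list used here carries the name of the wt/wt SF3B1 samples, but its header speaks of sites reproduced by all replicates of either condition, so no site is assigned to a genotype, and the other groups were not analysed here. It gives positions only, with no read number and no value per replicate. Every count below therefore has no replicate error, differences between genes could not be tested, and library depth is unknown. A site needs RNA, transcript levels were not measured here, and counts were not corrected for expression. The labels call the cells derived from chronic lymphoid leukaemia, whereas K562 is known as a line from chronic myeloid leukaemia with erythroid features. Sites lay in 8 of 13 erythroid and K562 genes, among them TFRC with 121, BCR with 24 and TAL1 with 17, and in 0 of 9 B-lymphoid genes such as PAX5 and MS4A1. The globin genes in the first list (HBG1, HBG2, HBZ and HBE1) and KLF1 also had 0 sites.

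As background, SF3B1 is the largest protein of SF3b, the part of the U2 snRNP that grips the intron around the branch point, the adenosine that attacks the 5′ splice site in the first step of splicing. A pyrimidine-rich tract and an AG dinucleotide follow the branch point and end the intron, and U2AF2 holds that tract. Remodellers are grouped by their ATPase. SWI/SNF (BAF and PBAF) complexes slide and evict nucleosomes at enhancers and promoters, ISWI and CHD enzymes mainly space them, and INO80-type enzymes exchange histone variants such as H2A.Z. Several SWI/SNF subunits are tumour suppressors.

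The sequence under a site can be shown where a RefSeq promoter window happens to cover it. Such a window holds 250 bases before and 50 bases after an annotated start. Windows of any gene covered 6 of the 737 sites, in SMARCC1, SMARCA4 and ARID2. The 3 stretches are printed 5′ to 3′ on the strand of the gene from the GRCh38.p14 windows. The 5 nt of each site are in capitals. They are examples and need not resemble the other sites of these genes. The SMARCC1 and ARID2 windows belong to starts of other genes, HIGD2AP2 and LOC105369745.

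SMARCC1: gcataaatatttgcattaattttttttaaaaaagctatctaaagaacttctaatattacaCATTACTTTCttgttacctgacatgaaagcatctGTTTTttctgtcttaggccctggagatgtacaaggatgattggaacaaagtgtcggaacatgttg

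SMARCA4: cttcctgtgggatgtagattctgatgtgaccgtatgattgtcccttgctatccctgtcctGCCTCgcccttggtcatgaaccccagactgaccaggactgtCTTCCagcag

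ARID2: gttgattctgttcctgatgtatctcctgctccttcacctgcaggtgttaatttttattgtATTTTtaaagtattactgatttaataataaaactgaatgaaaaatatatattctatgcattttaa

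The SMARCC1 stretch, chr3:47662544-47662702 on the minus strand, holds 3 sites. A pair of abutting sites (47662638 to 47662642 and 47662633 to 47662637) is followed by a single one (47662604 to 47662608) that opens a run of thymines ending in an AG. The SMARCA4 stretch, chr19:10984013-10984123 on the plus strand, holds sites at 10984073 to 10984077 and at 10984114 to 10984118. The downstream site is directly followed by AG. Here the window belongs to an annotated SMARCA4 start at 10984124, and the stretch was cut at the base before it. In both stretches the sites thus come as an upstream and a downstream element, the spacing described further on. The ARID2 stretch, chr12:45849734-45849858 on the plus strand, holds 1 lone site at 45849794 to 45849798 in a run of thymines. Exon positions were not used, so whether these AG letters are splice sites in use was not looked up. Thymine made up 53.3% of the bases in these 6 sites. In the 427 sites of the whole list that lay fully inside such a window it made up 57.9%, against 25.9% of all bases in the windows that held them. Of the 40 promoter windows listed for 25 of the remodelling genes, 1 had a site on the strand of the gene, the SMARCA4 window above. Over all 34943 windows, 0.575% had such a site.

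The 29 genes with a site made up 87.9% of the list, whereas 37.9% of 20056 protein-coding genes had a site. At least 5 sites were found in 27 of the 33 genes, against 23.1% of protein-coding genes. The remodelling genes are long, with a median span of 77.0 kb against 24.1 kb for all protein-coding genes. The 13695 protein-coding genes within the range of length of these genes (10.6 to 434.8 kb) were still shorter, with a median of 41.1 kb. Length was thus not matched. Of those 13695 genes, 46.2% had a site and 29.5% had at least 5. Remodelling genes with a site held a median of 22 sites (quartiles 9 and 30), against 7 (quartiles 3 and 15) in all protein-coding genes with a site. Per kb of gene the medians were closer, 0.226 in the remodelling genes (quartiles 0.102 and 0.493) and 0.199 in all genes (quartiles 0.0706 and 0.510). Protein-coding genes of the same range of length also had a median of 7 sites (quartiles 3 and 17), and 0.162 sites per kb. In number and per kb, the quartiles of the remodelling genes overlapped those of either set. Across the 33 genes, Spearman's rho between length and number of sites was 0.56. It was 0.25 over all protein-coding genes and 0.095 over those of the same range of length. Over the 71 further remodelling genes described below it was 0.21. Genes with 0 sites were included and made up a larger share of each comparison set. The values are a description, since all genes share one list. Of the 29 genes, 7 held 31 sites or more, as did 760 of the 7609 protein-coding genes with a site. This count was not corrected for length. EP400, CHD2, SMARCC1, CHD9 and ARID1A together held 334 sites, 45.3% of those in the list of 33.

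**Figure D1:**
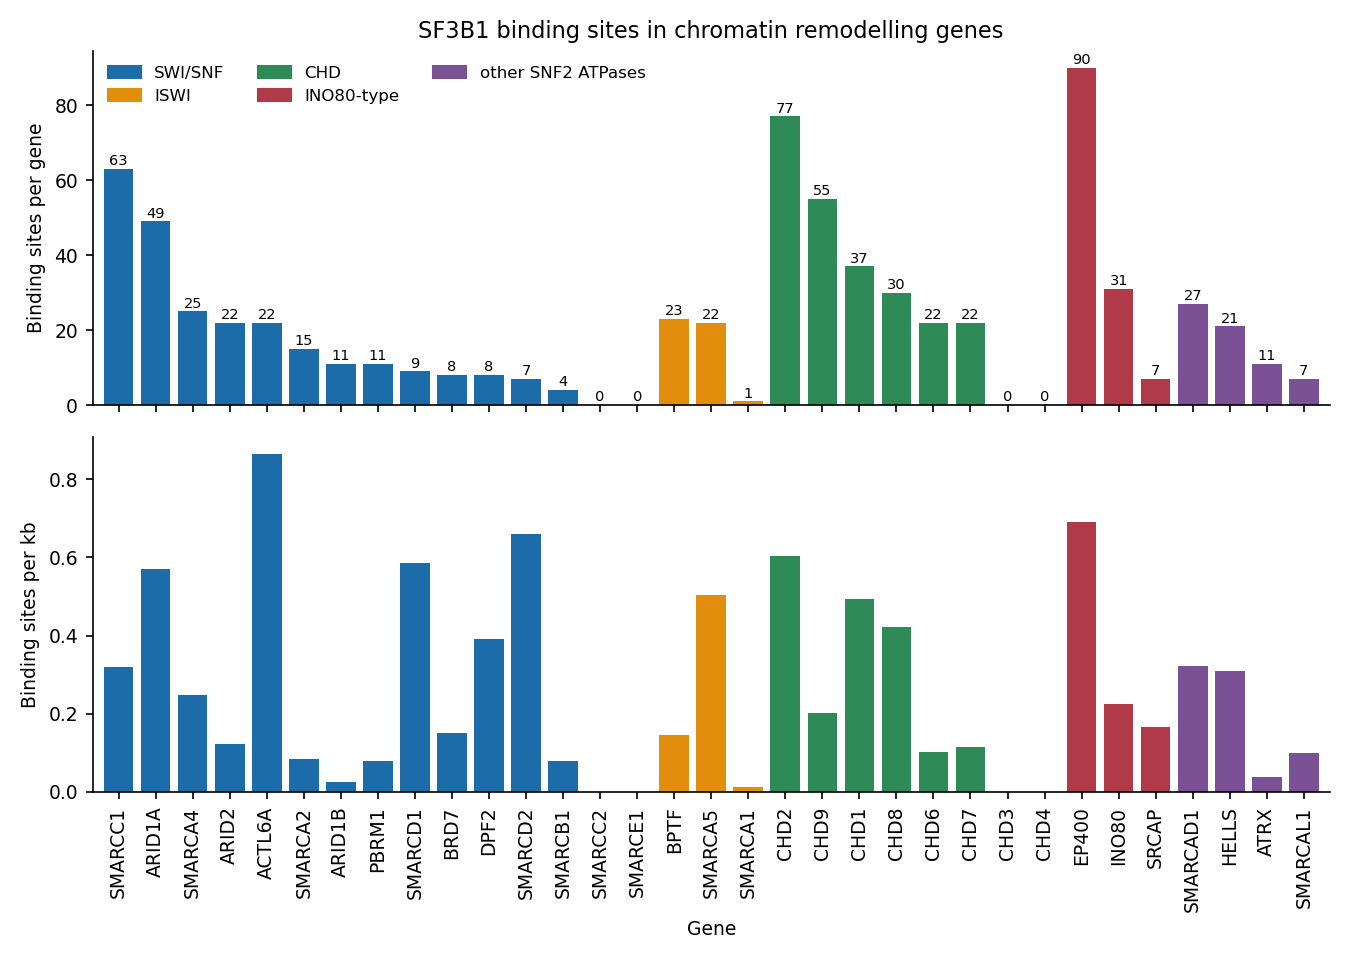
Number of SF3B1 sites (upper bars) and sites per kb of the RefSeq span (lower bars) for each of the 33 genes, coloured by family and ordered by number within it; there are no error bars because the list has no replicate values. EP400 has the most sites, 90, while the short gene ACTL6A is the most densely covered, 0.863 sites per kb.

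**Figure D2:**
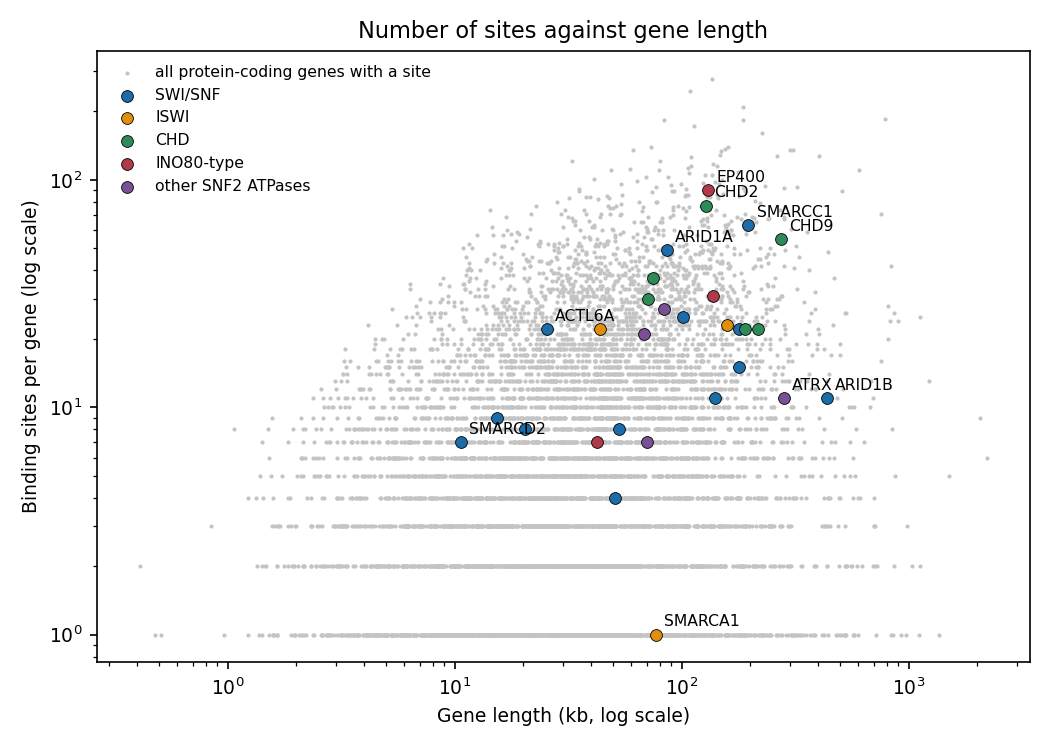
Number of sites against gene length, both on log scales, for every protein-coding gene with a site (grey) and for the remodelling genes (coloured by family). EP400 and CHD2 lie near the upper edge of genes of their length, ARID1B and ATRX have 11 sites each in spans of 434.8 and 281.3 kb, and SMARCA1 has 1.

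The ATPases of SWI/SNF are encoded by SMARCA4 (BRG1) and SMARCA2 (BRM), which replace each other in the complex. SMARCA4 had 25 sites in 101.2 kb (chr19:10961030-11062273, plus strand), or 0.247 per kb, and SMARCA2 had 15 sites in 178.3 kb, or 0.0841 per kb. Of the SMARCA4 sites, 13 lay between 70% and 80% of the gene, while 14 of the 15 SMARCA2 sites lay before its midpoint. These ATPase genes thus differed in the number of sites and in the end of the gene that held most of them.

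The core scaffold of SWI/SNF is built from SMARCC1 (BAF155) and SMARCC2 (BAF170). SMARCC1 had 63 sites, the most in this family and 148th among the 7609 protein-coding genes with a site (chr3:47585269-47781893, minus strand). SMARCC2, a gene of 27.1 kb, had 0. The sites of SMARCC1 were spread widely, from 4.5% to 97.1% of the gene, in 38 clusters, a cluster being a run of sites with at most 60 nt between neighbours. The other core subunits had fewer sites. SMARCB1 (SNF5), the subunit lost in rhabdoid tumours, had 4 sites, SMARCE1 (BAF57) had 0, SMARCD1 (BAF60A) had 9 and SMARCD2 (BAF60B) had 7. SMARCD1 and SMARCD2 span 15.4 and 10.6 kb, and their densities, 0.586 and 0.660 per kb, were above the 0.320 of SMARCC1. No 2 of the 7 sites in SMARCD2 were within 60 nt of each other, so it had 7 clusters of 1 site. ACTL6A (BAF53A), an actin-related protein shared by SWI/SNF and INO80-type complexes, had 22 sites in 25.5 kb (chr3:179562926-179588407, plus strand). Its 0.863 sites per kb were the highest density of the 33 genes, 1088th among the 7609 genes with a site.

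The ARID proteins, PBRM1 and BRD7 decide which form of SWI/SNF is made. ARID1A, the BAF subunit most often mutated in cancer, had 49 sites in 86.1 kb (chr1:26696015-26782104, plus strand), or 0.569 per kb. Its paralog ARID1B, the longest gene of the list, had 11 sites in 434.8 kb, or 0.0253 per kb, the lowest density in the family among genes with at least 5 sites. ARID2, which marks the PBAF form, had 22 sites (chr12:45729706-45908037, plus strand), of which 11 lay between 60% and 70% of the gene and 9 in its last 10%. PBRM1 (polybromo) had 11, BRD7 had 8, and DPF2, a PHD finger subunit of BAF, had 8. In ARID1A, 44 of 49 sites lay beyond the midpoint, in ARID1B all 11 and in ARID2 all 22. The first site of ARID1B lay 260.8 kb from the start of the span and that of ARID2 107.0 kb. SWI/SNF genes as a group held 254 sites in 13 of 15 genes, with a range of 0 to 63 and a median of 11.

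The ISWI genes differed widely. SMARCA5 (SNF2H), the ISWI ATPase used in most proliferating cells, had 22 sites in 43.8 kb (chr4:143513702-143557486, plus strand), 0.502 per kb. SMARCA1 (SNF2L), its paralog on the X chromosome, had 1 site in 77.0 kb. BPTF, the large subunit of the NURF complex that reads methylated histone H3, had 23 sites (chr17:67825503-67984378, plus strand), or 0.145 per kb, of which 9 lay between 50% and 60% of the gene.

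The CHD genes held 243 sites, and these lay almost entirely beyond the midpoint of each gene, 231 against 12 before it. CHD2, mutated in childhood epilepsy, had 77 sites (chr15:92900324-93027996, plus strand), 0.603 per kb and 83rd among the genes with a site. A total of 34 of these lay between 70% and 80% of the gene, and none in the first 49.1 kb. CHD9 had 55 sites (chr16:53054991-53327497, plus strand), the first of them 154.4 kb from the start. CHD1, which works at transcribed genes, had 37 (chr5:98853985-98929007, minus strand). CHD8, an autism gene that represses Wnt targets, had 30 (chr14:21385199-21456123, minus strand). CHD6 (chr20:41402083-41618377, minus strand) and CHD7, the gene of CHARGE syndrome (chromosome 8, plus strand, 60678740 to 60868028), had 22 each. Every site of CHD1, CHD6, CHD7 and CHD9 lay beyond the midpoint, as did 29 of 30 in CHD8 and 66 of 77 in CHD2. Densities ran from 0.102 per kb in CHD6 to 0.603 in CHD2. CHD3 and CHD4, the ATPases of the NuRD complex, had 0 sites in 28.0 and 37.3 kb. The 6 CHD genes with sites thus shared an empty 5′ part, and the NuRD enzymes stood apart with none.

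Among the INO80-type genes, EP400, which deposits H2A.Z in the TIP60 complex, had 90 sites (chr12:131949942-132080460, plus strand). It ranked 52nd among the 7609 genes with a site, and its 0.690 sites per kb were the highest density in the family. Unlike in the CHD genes, the sites of EP400 were spread evenly about its midpoint, 44 before and 46 beyond. INO80 had 31 sites (chr15:40978880-41116280, minus strand) in 2 blocks, 15 before the midpoint and 16 beyond it, with 51.2 kb free of sites between neighbours. The last 10% of INO80 held 13 of them. SRCAP, a close relative of EP400 and the gene of Floating-Harbor syndrome, had 7 sites, all of them between 1.25 and 4.89 kb from the start of a 42.2 kb span. Its 0.166 sites per kb were the lowest of these 3 genes. The sites of SRCAP, 3 clusters in the first 11.6% of the gene, were thus placed opposite to those of the CHD genes.

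The remaining SNF2-type ATPases act alone or in small complexes. SMARCAD1, which helps to keep silent chromatin through replication, had 27 sites (chr4:94207608-94291292, plus strand). HELLS (LSH), needed for DNA methylation of repeats, had 21, all of them in the first 28.8 kb of a 68.1 kb span. ATRX, which deposits histone H3.3 with DAXX, had 11 in 281.3 kb, or 0.0391 per kb, and a single stretch of 79.4 kb between neighbouring sites. SMARCAL1, an annealing helicase at stalled forks, had 7, all in the first 16.1 kb. SMARCAD1 had the highest density of these genes, 0.323 per kb, and ATRX the lowest.

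Paralogs ranged from equal to far apart in their counts. CHD6 and CHD7 had 22 sites each, SMARCD1 had 9 and SMARCD2 had 7, and SMARCA4 had 25 and SMARCA2 had 15. SMARCC1 had 63 sites and SMARCC2 had 0. SMARCA5 had 22 and SMARCA1 had 1. ARID1A had 49 and ARID1B had 11. EP400 had 90 and SRCAP had 7. None of these counts has a replicate behind it. How reads shared by similar copies were counted is not stated, and the part that expression or mapping plays in these contrasts was not tested.

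Positions along the gene were compared in the 27 genes with at least 5 sites. Beyond the midpoint lay 534 of their 732 sites, 73.0% (95% Wilson interval 69.6% to 76.0%, counting error only), against 63.6% over the 4630 protein-coding genes that also reached 5 sites. The share was highest in the CHD family, with 95.1% beyond the midpoint (231 of 243 sites). The other 21 genes together had 62.0% (303 of 489, 95% Wilson interval 57.6% to 66.2%, counting error only). Leaving out the family with the highest share had to lower the value. No conclusion is therefore drawn from its nearness to that of all genes. The other families differed. Counting every site, SWI/SNF genes had 173 beyond the midpoint and 81 before it, and ISWI genes 35 and 11. INO80-type genes had 62 and 66, and the other SNF2-type ATPases 33 and 33. In 22 of the 27 genes more sites lay beyond the midpoint than before it. The other 5 were SMARCA2, SMARCAL1, SMARCD1, HELLS and SRCAP. How many of all protein-coding genes had more sites beyond the midpoint was not counted. The last 10% held 88 sites and the first 10% held 18, a ratio of 4.89, against 2.99 in all genes with at least 5 sites. Without the CHD genes, which had 32 sites in the last 10% and 0 in the first, the ratio was 3.11. The stretch from 70% to 80% held 159 sites, 21.7% against 13.1% in all genes, of which CHD2 gave 34, EP400 15, ARID1A 14 and SMARCA4 13. No site lay in the first 10% in 18 of the 27 genes (66.7%), a share below the 76.0% of all genes with at least 5 sites. The first site lay at a median of 26.9% of the gene, against 24.6% in all genes. Spans were the widest that RefSeq gives, and shorter transcripts can start within them, as the SMARCA4 start above does.

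**Figure D3:**
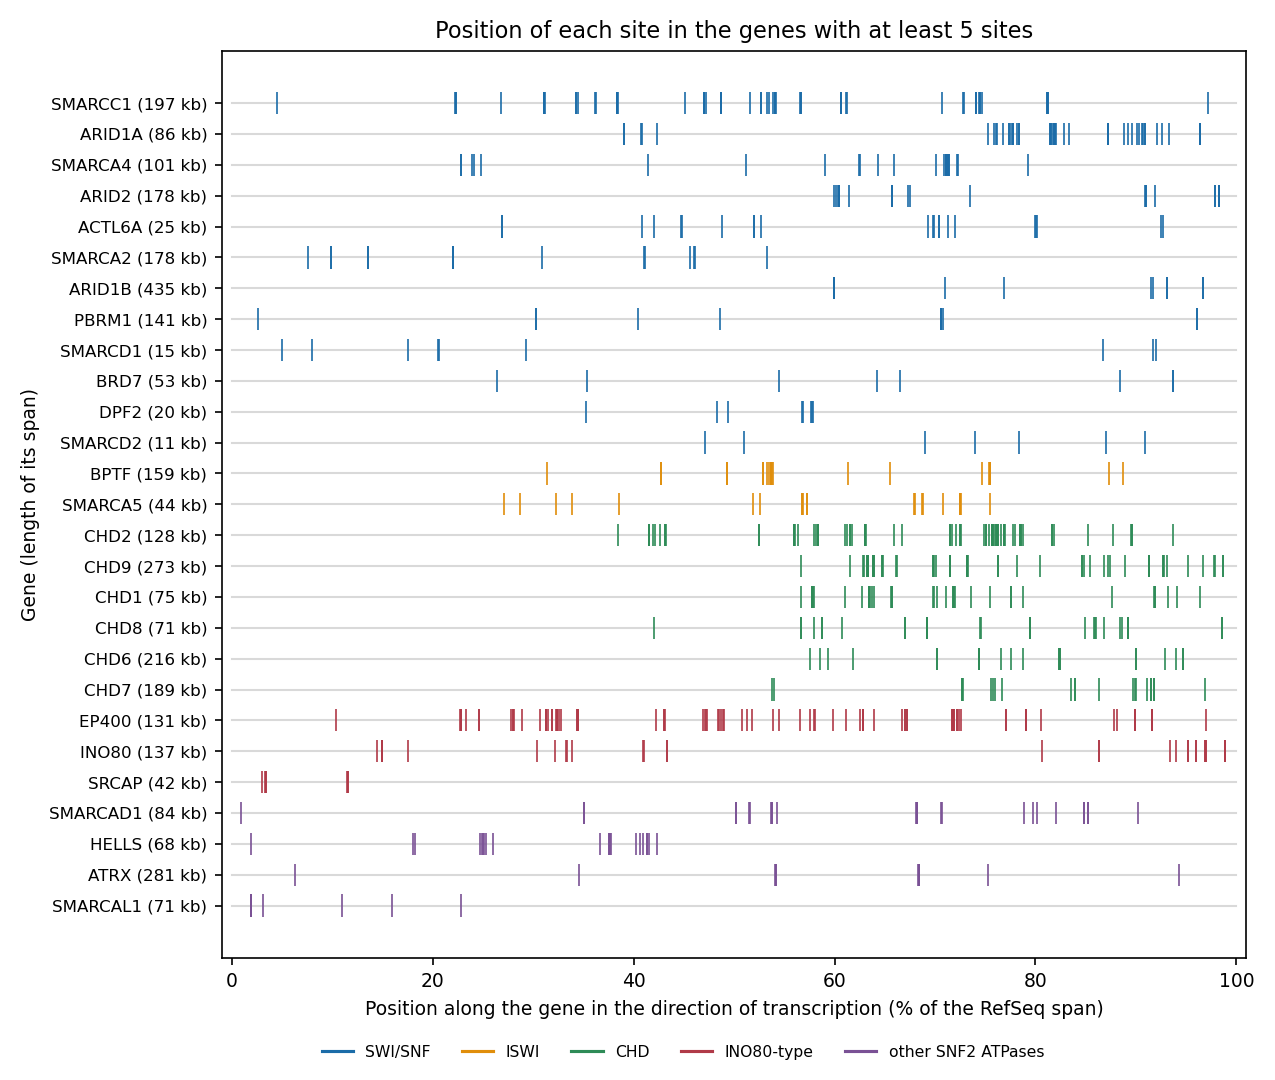
Each vertical mark is 1 site, placed by its distance from the start of the RefSeq span as a percent of that span, for the 27 genes with at least 5 sites. The CHD genes are empty over their 5′ part, EP400 and SMARCC1 are covered along most of their length, and SRCAP, SMARCAL1 and HELLS have sites only before the midpoint.

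**Figure D4:**
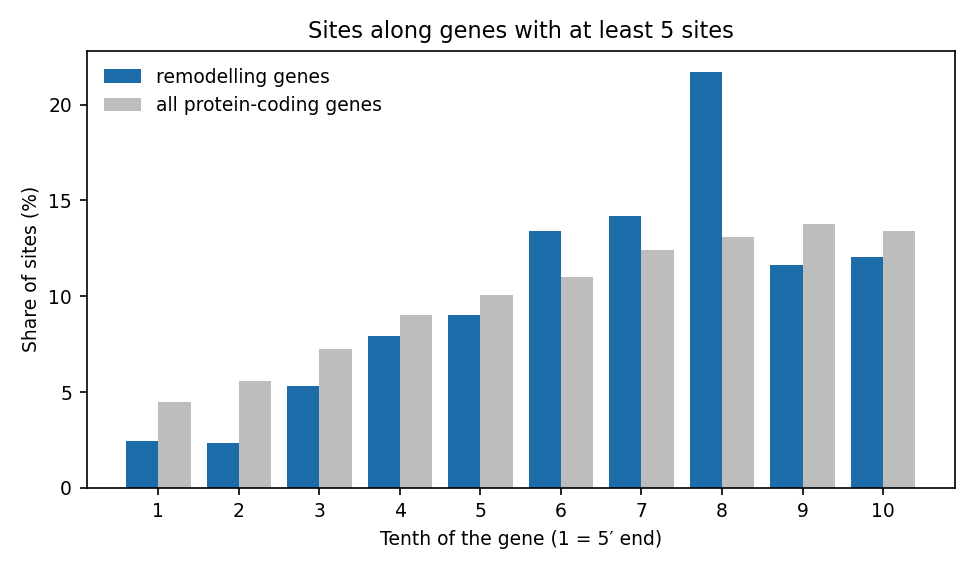
Share of sites in each 10% of the gene, from the 5′ end (1) to the 3′ end (10), for 732 sites in the remodelling genes (blue) and for 87821 sites in all protein-coding genes with at least 5 sites (grey). The largest departure is at 8, where the remodelling genes hold 21.7% and all genes 13.1%.

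Clusters in these genes had sizes close to those in other protein-coding genes, but neighbouring sites lay farther apart. The median distance between neighbours was 259 nt, against 157 nt over all protein-coding genes. Between the first and last site, genes with at least 5 sites had a median of 0.475 sites per kb. All protein-coding genes with at least 5 sites had 0.726. The 737 sites formed 482 clusters, of which 311 (64.5%; 95% Wilson interval 60.2% to 68.7%) had 1 site, 104 had 2, 52 had 3 and 15 had 4 or more. Over all protein-coding genes 63.2% of clusters had 1 site, inside that interval. A partner 25 to 45 nt away was found for 270 sites, 36.6% (95% Wilson interval 33.2% to 40.2%), against 36.5% over all protein-coding genes. Partners are mutual, so sites are not independent, and every interval given for this share is too narrow. By family this share ran from 30.4% in ISWI to 42.4% in the other SNF2-type ATPases, with intervals that overlapped widely (19.1% to 44.8% and 31.2% to 54.4%). Among genes with at least 20 sites it ran from 18.2% in CHD7 to 59.3% in SMARCAD1.

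Counting every pair of sites in a gene, 166 pairs were 25 to 45 nt apart and 26 were 46 to 66 nt apart. The ratio was 6.38, against 3.59 over all protein-coding genes. Of the 29 genes with a site, 26 had more pairs in the nearer span, a count that was not made over all protein-coding genes. SRCAP had as many in each span, SMARCA1 and SMARCD2 had no pair in either, and 0 genes had fewer. EP400 had 22 pairs in the nearer span against 3, SMARCC1 had 20 against 3, and CHD2 had 18 against 3. Over all distances, counts summed over 3 adjacent distances were highest at 6 nt, with 67 pairs. Between 20 and 59 nt there were 38 pairs around 34 nt and 37 around 39 nt, the commonest single distance in that range with 19 pairs. Pairs 140 to 180 nt apart numbered 66 and pairs 60 to 100 nt apart 27, a ratio of 2.44 against 1.72 over all protein-coding genes. This excess was uneven, since 12 genes had more pairs at the longer distance, 4 had fewer and 13 had no pair at either distance. The same split was not counted over all protein-coding genes. CHD2 had 13 against 3 and SMARCC1 12 against 2, whereas CHD1 had 3 against 5. The windows had been chosen earlier on the whole list.

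**Figure D5:**
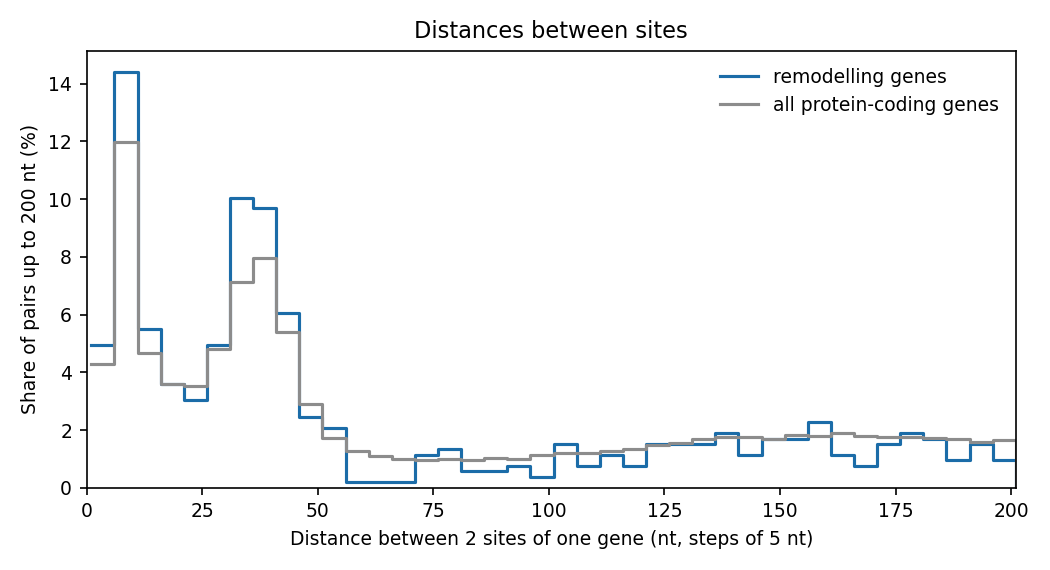
Distances between sites of one gene up to 200 nt, in steps of 5 nt, as a percent of all such pairs, for the remodelling genes (blue) and for all protein-coding genes (grey). Both curves have one peak at the shortest distances and another inside the span of 25 to 45 nt.

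A paired footprint is a cluster that falls into an upstream and a downstream group, with steps of at most 12 nt inside a group and 25 to 45 nt between the group means. There were 90 of them, 18.7% of the clusters, against 17.4% over all protein-coding genes. EP400 had 12, SMARCC1 and CHD2 had 8 each, and ARID1A had 6. Their upstream groups held 114 sites and their downstream groups 120, whereas over all protein-coding genes these held 13795 and 13207. The order was thus opposite, by a difference of few sites that was not tested. The SMARCC1 and SMARCA4 stretches printed above are both such footprints, in SMARCC1 with 2 sites in the upstream group and 1 in the downstream group.

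The cluster with the most sites was located in each of the 6 genes richest in sites. In SMARCC1 it was chr3:47675596-47675646, with 5 sites whose centres were 7, 8, 26 and 5 nt apart in the direction of transcription, a paired footprint. In CHD2 it was chr15:92953288-92953343, with 4 sites at steps of 9, 26 and 16 nt. In ARID1A it was chr1:26766158-26766212, with 4 sites at steps of 7, 23 and 20 nt. In EP400, where 2 clusters had 4 sites, the first was chr12:131979635-131979685, with steps of 17, 23 and 6 nt. CHD9 and CHD1 had 4 clusters of 3 sites each, of which the first were chr16:53228929-53228970, with steps of 32 and 5 nt, and chr5:98885657-98885703, with steps of 31 and 11 nt. The widest step in each of these clusters was 23 to 32 nt. No cluster of the 33 genes was larger than 5 sites. The largest over all protein-coding genes had 9, but among 59922 clusters against 482 here. Mean sites per cluster were close, 1.53 in the 33 genes and 1.57 over all protein-coding genes.

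Of the 33 genes, 10 enclose short RNA genes (snoRNA, scaRNA or miRNA), 11 in all. A site lay inside 1 of them, SNORD146 in SMARCC1, and a further one, SNORA49 in EP400, had its nearest site 214 nt away. The others had no site within 500 nt, including SNORD8 and SNORD9 in CHD8. CHD3 and CHD4, which enclose SCARNA21 and SCARNA11, had no site at all. The strand of SNORD146 was not compared, and if it is that of SMARCC1 the single site can come from either RNA.

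All 737 sites lay on the strand of their gene, and 0 sites lay on the other strand inside the 33 spans. Strand came from the promoter table for 25 genes and, for 7 genes with sites, from the sites themselves, where it cannot be an independent check. None of the sites lay in a second protein-coding gene. The spans of long non-coding RNA genes, with strand not compared, covered 10 sites of ARID2, 8 of ACTL6A, 7 of INO80 and 2 each of CHD6 and CHD8. The one in ARID2, LOC105369745, lies on the opposite strand by the position of its promoter window, so its RNA does not hold these sites. The site nearest to a gene end was 720 nt inside it, and 0 sites lay within 1 kb outside a span on the same strand.

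A further 71 genes for remodelling subunits and relatives were counted as one list. Of these, 56 (78.9%) had a site and 41 had at least 5, with 946 sites in all and a median of 12.5 sites per gene with a site. TRRAP, the scaffold that EP400 shares with acetyltransferase complexes, had 52 sites, HLTF 49 and BAZ1B, an ISWI partner, 46. Of 12 genes for other NuRD subunits in this list, 10 had a site, with a median of 14 over the 12 genes. Among them RBBP4 had 32 sites, MTA3 had 4, MBD2 had 2, and MBD3 and CDK2AP1 had 0, as did the NuRD ATPase genes CHD3 and CHD4. The share with a partner 25 to 45 nt away was 35.9% in this list (95% Wilson interval 32.9% to 39.0%), which overlaps the interval of the 33 genes.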

How the data were processed

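SF3B1 iCLIP of K562 cells was analysed from 1 deposited list of binding sites in BED form. Per the file headers, it holds merged sites of 5 nt that every replicate of one or the other condition reproduced. The deposited score was 0 in every row and was not used. A running number shared by some neighbouring sites was used only for an alternative. The submitters' processing notes name STAR 2.7.3a and 2.6.1b, UMI-tools 1.0.0, bedtools 2.27.1, FastQC 0.11.8 and the builds GRCh38.p10 and GRCh38.p12, without order, and the site caller is not given in the sources used here. Such a filter can drop sites in rare RNA, and merging sets how near to each other sites can be.

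Positions were made 1-based, and sites were assigned by their centre to RefSeq spans of GRCh38.p14. Gene strand came from the RefSeq promoter table (25 members), and otherwise from the strand with more sites. The same rule was applied to all 20056 protein-coding genes. The table gives no exons, so the planned shares of sites and introns near 3′ splice sites were not computed. No test was made. Members and lists were chosen with earlier results of these data known. Coordinates were given for the members with the most sites, 11 plus 5 tied at 22. Members with 0 sites and those with the highest and lowest density per family were named with their values. TFRC, BCR, TAL1, TRRAP, HLTF, BAZ1B and the NuRD genes were named after their values were seen. A few listed marker genes are not reported here. Counting was tested on simulated sites in 200 genes, and all 200 were recovered. Software was Python 3.11.15, NumPy 2.4.6, pandas 2.3.3, SciPy 1.17.1 and matplotlib 3.10.9.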

Additional observations from a re-analysis of the deposited data

How the results depend on the processing

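Of 32 recalculations of 6 results, 13 gave the same value because nothing could change: no site lay in a second protein-coding gene or on the other strand, and all sites had one width. Of the other 19, 18 stayed within the limits set, namely 1.5 times for counts and densities, and the 95% Wilson interval for shares and ratios. The exception was the share of sites with a partner, 28.4% when the window was narrowed to 30 to 42 nt. Some of the 18 could not fail. Merging touching sites or keeping 1 per region number cannot alter the 29 genes with a site. Leaving out EP400, with 90 of 737 sites, cannot move the number of sites by 1.5 times. Keeping 1 site per region number gave 671 sites and a ratio of 2.04 for pairs 140 to 180 nt against 60 to 100 nt apart. Without EP400 there were 647 sites, and 4.67 times as many lay in the last as in the first 10%. Alternatives that need exon positions were not run. Leaving out single replicates was not possible in a merged list. No paired analysis was possible because replicates have no values of their own. For the genes with 0 sites, absence of binding and too little RNA cannot be told apart.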
